A study of Mus musculus with 12 samples.

Results

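Matrix metalloproteinases (MMPs), ADAMTS proteases with the related ADAMTS-like proteins, and their tissue inhibitors (TIMPs) were followed in organoids, progenitor cells and tissue of mouse kidney. With earlier results of these data known, the members were defined by symbol, as every gene with a probe set that carries one symbol and whose symbol is Mmp or Timp plus a number, or begins with Adamts. This gave 42 of the 18193 genes on the array, namely 18 Mmp, 15 Adamts, 5 Adamtsl and 4 Timp genes, read by 78 probe sets. RNA was measured on 12 arrays, 2 for each of 6 groups: medulla organoids, cortex organoids, medulla progenitors, cortex progenitors, medulla tissue and cortex tissue. Progenitors were cultured over fibroblast feeder cells, and organoids in a 3D Matrigel system meant for differentiation. The labels name mouse as the species without a strain, age, sex or allele, do not say whether feeder cells were removed before RNA was taken, and call the replicates biological. No allele or agent is named for any group beyond the culture systems themselves.

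MMPs are zinc proteases, secreted or held at the cell surface, that are made as inactive proenzymes and cleave collagens, laminins, proteoglycans and many cell surface and signalling proteins. ADAMTS proteases are secreted, carry thrombospondin repeats that bind the matrix, and include the enzymes that cut aggrecan and versican, while ADAMTS-like proteins have the repeats without the protease domain and bind microfibrils. TIMPs block MMPs by occupying the active site, and in kidney the balance of these proteases and inhibitors has been studied mainly in fibrosis, tubule injury and branching of the developing tubule.

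Of the 42 members, 29 passed the brightness filter, which asked that both arrays of some group lie above their array's median: 12 Mmp, 10 Adamts, 4 Adamtsl and 3 Timp genes. The other 13 (Adamts3, Adamts6, Adamts18, Adamts19, Adamts20, Adamtsl3, Mmp1a, Mmp1b, Mmp8, Mmp12, Mmp16, Mmp17 and Timp4) were not tested, and their highest log2 signal on any array was 6.83, for Adamts6. Brightness was above the array median in all 6 groups for 8 members: Adamts1, Adamts5, Adamts9, Adamtsl4, Mmp2, Mmp14, Timp2 and Timp3. In 7 members it was so in groups of 1 sample type only. These were Mmp19 in organoids, Adamts7, Adamtsl5 and Mmp20 in progenitors, and Adamtsl1, Adamtsl2 and Mmp23 in tissue. Adamts4, Mmp3, Mmp7, Mmp10, Mmp11 and Timp1 were above it in organoid and progenitor groups and in no tissue group. All these members passed the filter through the sample types in which they are bright. Counts over the 29 or over a family thus describe the members that passed and support nothing beyond that.

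Levels below are the deposited log2 signals of one probe set per gene and are compared only within a gene. Differences are in log2(signal + 15.1), so that differences of dim genes are understated, and are given ± standard error (SE) with limma's p adjusted over all 13037 genes tested. A gene is said to be higher, lower or called when that adjusted p is under 0.05, and folds are of signal + 15.1. Organoid, progenitor and tissue differences are averages over both regions (4 arrays on each side), and the 3 comparisons share arrays pairwise.

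The arrays differed in quality measures between sample types, and each difference below goes with these values. The median log2 signal of the poly-A spike controls was 1.15 to 2.30 on organoid arrays, 7.01 to 7.16 on progenitor arrays and 7.69 to 8.23 on tissue arrays. For Gapdh, the log2 signal of the 3' control minus that of the 5' control was 0.867 to 1.67 on organoid arrays, -0.405 to -0.298 on progenitor arrays and -0.233 to 0.183 on tissue arrays. For the actin control (Actb) the same measure set tissue apart instead, at -0.0015 to 0.149 on organoid arrays, 0.163 to 0.187 on progenitor arrays and 0.938 to 1.63 on tissue arrays. The part of these differences in the results was not tested. The tissue label was borne out by its markers: the mean log2 signal of 5 proximal tubule genes (Lrp2, Slc34a1, Miox, Fbp1 and Slc5a2) was 3.66 to 4.78 in organoids, 4.07 to 4.75 in progenitors and 13.76 to 14.43 in tissue. The 6 simple epithelial genes (Epcam, Cdh1, Krt8, Krt18, Krt19 and Pax8) averaged 12.50 to 12.74 in organoids, 13.53 to 13.75 in progenitors and 10.02 to 11.30 in tissue. Whole cultures and tissue pieces were measured, so fewer cells of a type and less RNA per cell cannot be told apart.

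Most tested members differed between sample types, and so did most genes. Between progenitors and tissue, 25 of 29 members were called, 17 higher and 8 lower in progenitors, against 72.7% of all genes tested (36.8% higher and 35.9% lower). The median difference was 0.88 over the members and 0.03 over all genes. Between organoids and progenitors 21 were called, 8 higher and 13 lower in organoids, against 72.3% of all genes (28.1% higher and 44.3% lower), with medians of -0.64 over the members and -0.29 over all genes. Mmp24, counted as higher, and Timp2 and Timp3, counted as lower, had other probe sets called in the opposite direction. Between organoids and tissue 24 were called, 16 higher and 8 lower in organoids, against 79.7% of all genes (33.0% higher and 46.6% lower), with medians of 0.88 and -0.29. The shares of members called either way are to be read against these backgrounds.

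By family, with no test of a difference between families, the calls were as follows. Of 12 Mmp genes tested, 9 were higher and 1 (Mmp23) lower in progenitors than in tissue, and 9 were higher and 2 (Mmp9 and Mmp23) lower in organoids than in tissue. Of all genes, 36.8% were higher and 35.9% lower in the first comparison, and 33.0% and 46.6% in the second. Mmp3, Mmp7, Mmp10, Mmp11, Mmp19 and Mmp20 passed the brightness filter through cultured groups only, and Mmp23 through tissue only. The Mmp counts therefore support nothing beyond these genes. Of 10 Adamts genes, 4 were higher (Adamts1, Adamts4, Adamts5 and Adamts7) and 4 lower (Adamts8, Adamts9, Adamts10 and Adamts15) in progenitors than in tissue, shares near the background of all genes in both directions. Among Timp genes Timp1 and Timp2 were higher and Timp3 lower, in progenitors and in organoids, than in tissue. By the pattern of their 3 calls, 7 members were higher in progenitors than in both organoids and tissue and also higher in organoids than in tissue (Adamts1, Adamts5, Mmp2, Mmp11, Mmp14, Timp1 and Timp2), and 4 were highest in organoids and lowest in tissue (Adamts4, Mmp7, Mmp13 and Mmp19). Of the first 7, the place of organoids depends on the probe set for Timp2 and Adamts5 and on the region for Mmp2, as described for each. Of the last 4, organoid and progenitor arrays overlapped for Adamts4 and Mmp13. Within a region, with no test, Mmp13 differed between them by 0.06 in medulla and 1.62 in cortex. The call of Mmp7 over progenitors missed the threshold with an offset of 1 signal unit. Means of 11 fibroblast and mesenchyme markers were highest in progenitors, at log2 signals of 8.75 to 9.06. They were 5.52 to 8.68 on organoid arrays and 7.81 to 8.66 on tissue arrays. The list was mixed, with 7 of the 11 higher and 3 (Lum, Pdgfra and Pdgfrb) lower in progenitors than in tissue. Progenitors were cultured over feeder fibroblasts, and the labels do not say whether the RNA held any. The part of feeder cells in the levels of the first 7 genes was not tested. The heat map of the tested members shows both blocks.

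**Figure D1:**
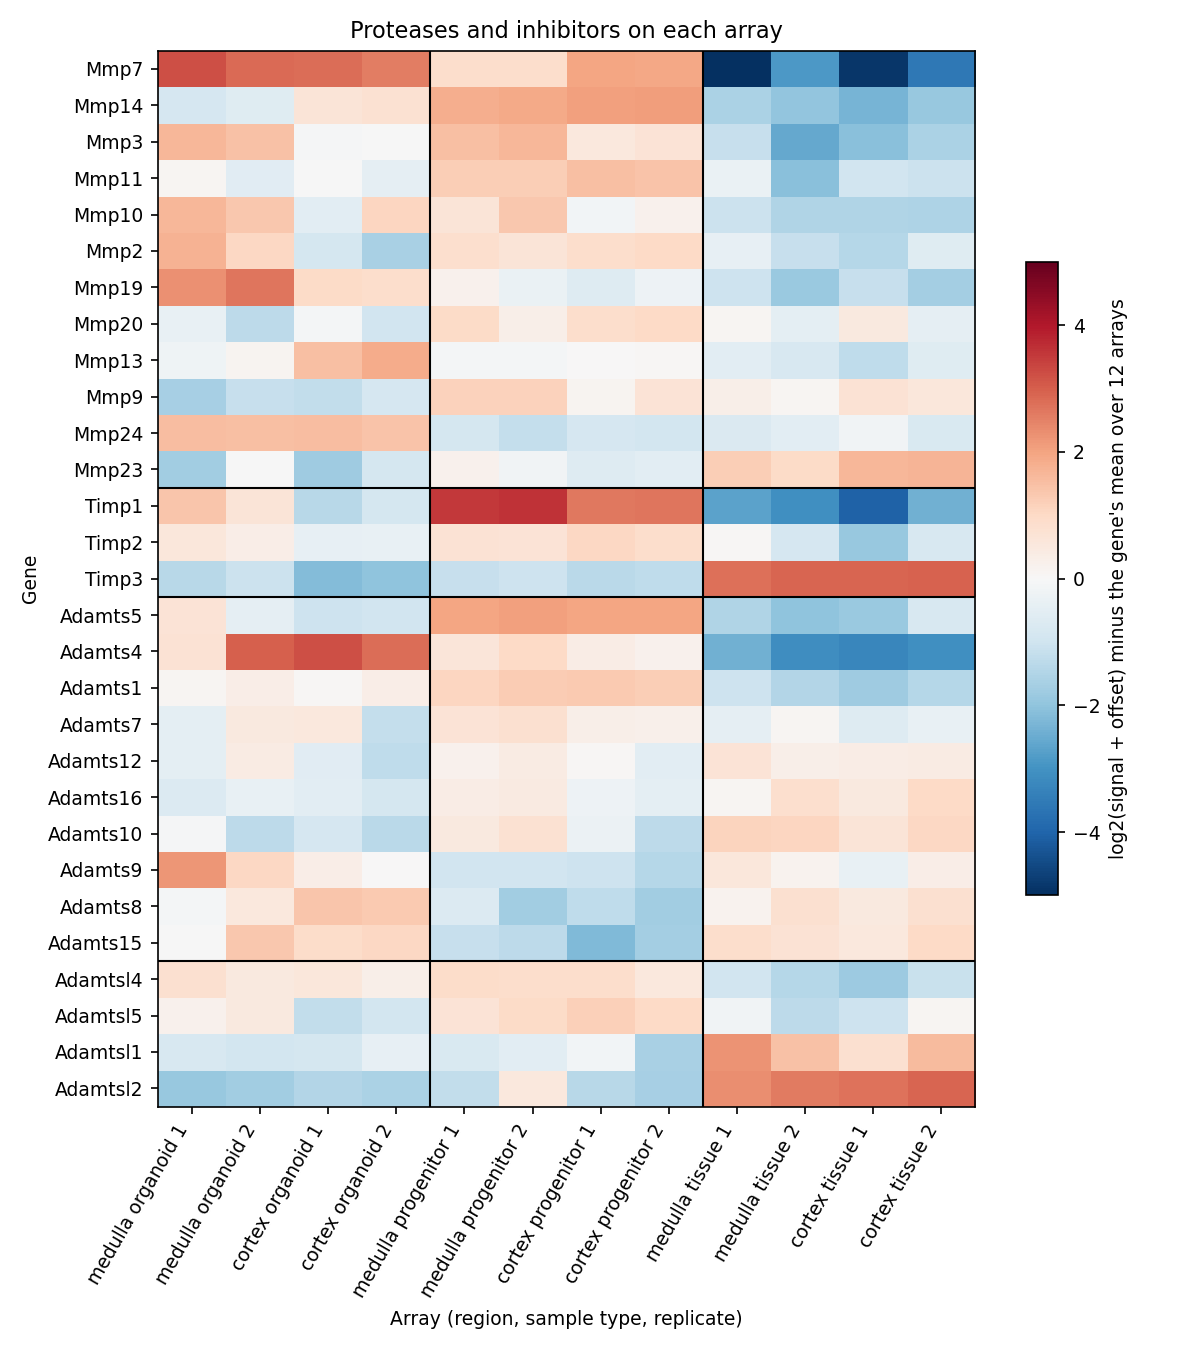
Heat map of the 29 tested members (rows) on the 12 arrays (columns: medulla and cortex organoids, medulla and cortex progenitors, medulla and cortex tissue). Colour is log2(signal + offset) minus the gene's own mean over the 12 arrays, so rows can be compared in pattern and not in level; Timp1, Mmp14 and Adamts5 are highest in progenitors, Mmp7, Mmp19 and Adamts4 in organoids, and Timp3 and Adamtsl2 in tissue.

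The inhibitors came out in opposite directions. Timp1, which blocks most secreted MMPs and is a poor inhibitor of the membrane-type enzymes, had log2 signals of 9.82 and 9.06 in medulla and 6.90 and 7.47 in cortex organoids, 11.99 and 12.07 in medulla and 11.09 and 11.12 in cortex progenitors, and 5.32 and 4.72 in medulla and 2.68 and 5.70 in cortex tissue. It was highest on every progenitor array, lowest on every tissue array, and in organoids every medulla array lay above both cortex arrays. Timp1 was higher in progenitors than in tissue by 6.16 ± 0.31 (limma adjusted p = 3.56e-09; 71.5-fold), the largest rise of any member in that comparison. It was lower in organoids than in progenitors, with a difference of -3.17 ± 0.31 (limma adjusted p = 2.00e-06; 9.03-fold) and still higher in organoids than in tissue by 2.99 ± 0.31 (limma adjusted p = 2.29e-06; 7.92-fold).

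Timp3, the inhibitor that binds to the matrix and also blocks ADAM17 and aggrecan-cutting ADAMTS enzymes, ran the other way. It had log2 signals of 9.67 and 10.02 in medulla and 8.87 and 9.04 in cortex organoids, 9.94 and 10.03 in medulla and 9.72 and 9.80 in cortex progenitors, and 13.84 and 14.01 in medulla and 14.00 and 14.04 in cortex tissue. All 4 tissue arrays lay within a narrow band far above every cultured array. Timp3 was lower in progenitors than in tissue, with a difference of -4.08 ± 0.10 (limma adjusted p = 1.08e-11; 16.9-fold) and lower in organoids than in tissue, with a difference of -4.54 ± 0.10 (limma adjusted p = 7.70e-12; 23.3-fold). The organoid and progenitor arrays overlapped, with a difference of -0.46 ± 0.10 (limma adjusted p = 0.00104). That last call depends on the probe set: of the other 3 probe sets of Timp3, one (1449334_at) was higher in organoids by 0.92 ± 0.10 (limma adjusted p = 3.37e-06) and one (1419088_at) was not called, with a difference of -0.24 ± 0.13 (limma adjusted p = 0.148).

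Timp2, which inhibits MMPs and also helps MMP14 to activate pro-MMP2, had log2 signals of 12.11 and 11.89 in medulla and 11.14 and 11.18 in cortex organoids, 12.25 and 12.22 in medulla and 12.56 and 12.43 in cortex progenitors, and 11.61 and 10.70 in medulla and 9.62 and 10.74 in cortex tissue. Every progenitor array lay above every tissue array, and the organoid arrays reached into the tissue range. Timp2 was higher in progenitors than in tissue by 1.69 ± 0.22 (limma adjusted p = 2.41e-05; 3.22-fold), and it was called lower in organoids than in progenitors, with a difference of -0.78 ± 0.22 (limma adjusted p = 0.00764; 1.72-fold). The direction of the organoid difference turns on the probe set. Of the other 5 probe sets of Timp2, 1437081_at, 1450040_at and 1433662_s_at were higher in organoids than in progenitors, by 4.28 ± 0.24 (limma adjusted p = 1.52e-08), 1.43 ± 0.17 (limma adjusted p = 9.97e-06) and 1.08 ± 0.16 (limma adjusted p = 9.36e-05), while 1460287_at and 1420924_at were lower. The probe set 1437081_at had log2 signals of 10.24 and 10.51 in medulla and 9.10 and 9.14 in cortex organoids, 5.10 and 4.44 in medulla and 5.27 and 4.75 in cortex progenitors, and 1.11 and 1.42 in medulla and 0.09 and 1.03 in cortex tissue, so that it was dim in tissue, intermediate in progenitors and bright in organoids. The mean of all probe sets of Timp2 was higher in organoids than in progenitors by 0.67 (limma adjusted p = 0.00339), so no direction is given here for Timp2 between organoids and progenitors. Timp4, the inhibitor best known from heart, was not tested, with log2 signals of 3.01 and 4.17 in medulla and 4.52 and 4.25 in cortex organoids, 4.48 and 3.98 in medulla and 3.13 and 3.69 in cortex progenitors, and 4.68 and 5.08 in medulla and 4.54 and 4.87 in cortex tissue.

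**Figure D2:**
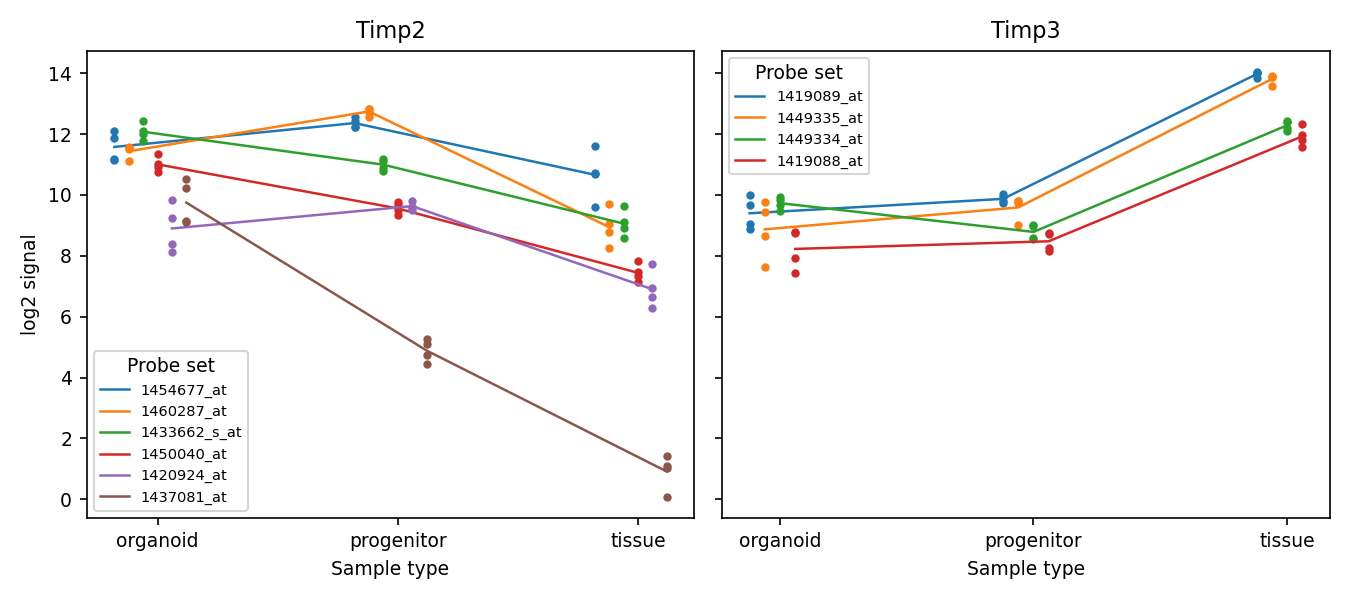
Deposited log2 signal of each probe set of Timp2 (6) and Timp3 (4) in organoids, progenitors and tissue; each point is an array and each line joins the means of 4 arrays. For Timp2, 3 probe sets are higher and 3 lower in organoids than in progenitors, while all 6 are lowest in tissue; for Timp3, all 4 are highest in tissue.

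Of the secreted MMPs, 9 lie in a cluster on chromosome 9, from the start of Mmp13 at 7272514 to the end of Mmp7 at 7699585 (GRCm38.p6). Their gene starts are shown because most of these genes share motifs there that are rare or missing in the other members with an entry. In the RefSeq promoter windows (GRCm38.p6, from 250 bases before to 50 after the gene start), 27 of the 42 members had an entry, with 30 windows. The AP-1-like motif TGANTCA was searched with any base at N and reads the same on both strands. It was in 8 of 11 Mmp windows on chromosome 9 (72.7%) and in 0 of 19 windows of the other members, against 7.81% of all 32851 windows. Of the matches printed below, that of Mmp20 has A at N and the others have G or C. The TATA box TATAAA, searched on the gene's strand, was in 8 of the 11 windows (72.7%) and in 2 of the 19 (10.5%), against 8.32% of all. The GC box GGGCGG, on either strand, was in 0 of the 11 and in 16 of the 19 (84.2%), against 35.7% of all. Of the 9 Mmp genes of the cluster, 8 held TGANTCA in at least 1 window, and Mmp8 did not. In the 120 bases before the start of the 5 cluster genes that were tested, capitals mark TGANTCA and TATAAA, and of the windows of Mmp7 the one with TGANTCA is shown.
Mmp7, chr9:7691970-7692089, + strand: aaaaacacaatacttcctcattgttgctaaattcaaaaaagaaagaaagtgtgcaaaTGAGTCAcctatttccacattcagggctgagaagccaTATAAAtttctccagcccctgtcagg
Mmp3, chr9:7445702-7445821, + strand: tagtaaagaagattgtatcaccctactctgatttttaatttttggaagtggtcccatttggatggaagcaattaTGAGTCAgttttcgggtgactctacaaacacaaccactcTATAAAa
Mmp10, chr9:7502222-7502341, + strand: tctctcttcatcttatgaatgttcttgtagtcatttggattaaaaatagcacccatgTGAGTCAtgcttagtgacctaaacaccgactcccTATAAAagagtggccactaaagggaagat
Mmp13, chr9:7272394-7272513, + strand: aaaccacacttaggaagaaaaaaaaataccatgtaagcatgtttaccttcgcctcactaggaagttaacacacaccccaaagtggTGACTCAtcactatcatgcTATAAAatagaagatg
Mmp20, chr9:7628111-7628230, + strand: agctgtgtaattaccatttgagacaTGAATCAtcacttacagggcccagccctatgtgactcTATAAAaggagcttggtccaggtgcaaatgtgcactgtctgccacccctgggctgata
For contrast, the same stretch of Mmp14 on chromosome 14 and of 2 inhibitors holds neither motif, and capitals mark the GC box on either strand.
Mmp14, chr14:54431478-54431597, + strand: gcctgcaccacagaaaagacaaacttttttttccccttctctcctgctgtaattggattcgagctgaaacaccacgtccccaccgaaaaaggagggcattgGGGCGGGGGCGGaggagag
Timp1, chrX:20870046-20870165, + strand: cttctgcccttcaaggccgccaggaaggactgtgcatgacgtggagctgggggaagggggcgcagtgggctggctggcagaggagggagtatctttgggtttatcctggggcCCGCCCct
Timp3, chr10:86300292-86300411, + strand: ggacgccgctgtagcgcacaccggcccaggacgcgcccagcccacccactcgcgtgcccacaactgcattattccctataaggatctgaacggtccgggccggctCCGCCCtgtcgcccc
A match is a description of letters and was not tested as a binding site.

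All 5 tested genes of the cluster were called higher in progenitors than in tissue, against 36.8% of all genes. Mmp3, Mmp7, Mmp10 and Mmp20 passed the brightness filter through cultured groups only, so this count supports nothing beyond these genes. Mean log2 signals of the untested cluster genes in progenitors and tissue were 3.36 and 5.65 for Mmp12 and 3.29 and 4.43 for Mmp1b. They were 2.84 and 3.30 for Mmp8 and 2.59 and 2.20 for Mmp1a. Mmp7 (matrilysin, a small MMP of epithelia that acts on surface and signalling proteins), at chr9:7692090-7699585, had the largest difference of the cluster. Its log2 signals were 13.43 and 13.06 in medulla and 13.02 and 12.77 in cortex organoids, 11.10 and 11.09 in medulla and 12.17 and 12.13 in cortex progenitors, and 2.81 and 7.20 in medulla and 4.69 and 6.39 in cortex tissue. Every organoid array lay above every progenitor array and every progenitor array above every tissue array, and the tissue arrays spread widely at a low level. Mmp7 was higher in progenitors than in tissue by 5.68 ± 0.47 (limma adjusted p = 3.54e-07; 51.4-fold), higher in organoids than in progenitors by 1.44 ± 0.47 (limma adjusted p = 0.0159; 2.72-fold), and higher in organoids than in tissue by 7.12 ± 0.47 (limma adjusted p = 3.74e-08; 139-fold). The rise over progenitors missed the threshold in 1 of 12 fits without 1 array, that without the first cortex organoid array (limma adjusted p = 0.0552). It also missed it with an offset of 1 signal unit (limma adjusted p = 0.0816). Over the settings other than leaving out an array, the limma adjusted p ran from 3.67e-06 to 0.0816.

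The stromelysins Mmp3 and Mmp10, which cleave laminin and proteoglycans and can activate other MMPs, were both higher in culture than in tissue. Mmp3, at chr9:7445822-7455975, had log2 signals of 8.44 and 8.23 in medulla and 6.59 and 6.61 in cortex organoids, 8.30 and 8.46 in medulla and 7.23 and 7.39 in cortex progenitors, and 5.18 and 2.05 in medulla and 3.57 and 4.53 in cortex tissue, with medulla arrays above cortex arrays in both cultured sample types. Mmp3 was higher than in tissue by 2.95 ± 0.29 (limma adjusted p = 1.67e-06; 7.73-fold) in progenitors and by 2.61 ± 0.29 (limma adjusted p = 4.15e-06; 6.11-fold) in organoids, and the organoid minus progenitor difference was -0.34 ± 0.29 (limma adjusted p = 0.309). Mmp10, at chr9:7502342-7510242, had log2 signals of 7.73 and 7.39 in medulla and 5.09 and 7.10 in cortex organoids, 6.61 and 7.36 in medulla and 5.65 and 6.11 in cortex progenitors, and 4.20 and 3.30 in medulla and 3.30 and 3.24 in cortex tissue. No tissue array reached any cultured array. Mmp10 was higher than in tissue by 1.94 ± 0.34 (limma adjusted p = 0.000241; 3.83-fold) in progenitors and by 2.31 ± 0.34 (limma adjusted p = 4.78e-05; 4.96-fold) in organoids, with an organoid minus progenitor difference of 0.37 ± 0.34 (limma adjusted p = 0.338).

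Mmp13 (collagenase 3, which cuts fibrillar collagen), at chr9:7272514-7283333, stood out for its cortex organoids. Its log2 signals were 7.09 and 7.45 in medulla and 8.91 and 9.25 in cortex organoids, 7.20 and 7.22 in medulla and 7.35 and 7.39 in cortex progenitors, and 6.74 and 6.39 in medulla and 5.84 and 6.62 in cortex tissue. Both cortex organoid arrays lay above all other arrays, and the medulla organoid arrays lay close to the progenitor arrays. Mmp13 was higher in progenitors than in tissue by 0.79 ± 0.21 (limma adjusted p = 0.00499; 1.72-fold) and higher in organoids than in tissue by 1.62 ± 0.21 (limma adjusted p = 1.60e-05; 3.08-fold). Averaged over regions it was also higher in organoids than in progenitors, by 0.84 ± 0.21 (limma adjusted p = 0.00336). Within a region, a description with no test, that difference was 0.06 in medulla and 1.62 in cortex. Mmp20 (enamelysin, known from developing teeth), at chr9:7628231-7674968, was dim throughout, with log2 signals of 4.05 and 0.55 in medulla and 4.54 and 2.58 in cortex organoids, 6.05 and 5.15 in medulla and 5.95 and 6.09 in cortex progenitors, and 4.90 and 3.83 in medulla and 5.40 and 3.89 in cortex tissue. It was higher in progenitors than in tissue by 0.88 ± 0.34 (limma adjusted p = 0.0337), with overlapping arrays, and lower in organoids than in progenitors, with a difference of -1.49 ± 0.34 (limma adjusted p = 0.00184; 2.8-fold).

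The AP-1 factors, of the Fos, Jun and Atf families, were measured on the same arrays. All 8 listed were called higher in progenitors than in tissue, against 36.8% of all genes. Fos was higher by 5.93 ± 0.18, Fosl1 by 4.36 ± 0.26 and Jun by 0.92 ± 0.15. In organoids 7 were higher than in tissue and 1 (Junb, -0.81 ± 0.16) was lower, against 33.0% and 46.6% of all genes. Between organoids and progenitors 4 were higher, among them Fosb (2.35 ± 0.15) and Atf3 (1.29 ± 0.19), and 2 were lower, Fos (-1.15 ± 0.18) and Junb (-4.37 ± 0.16). Of all genes, 28.1% were higher and 44.3% lower in that comparison. The medians of the list were 3.61 in progenitors and 4.49 in organoids against tissue, compared with 0.03 and -0.29 over all genes. Whether these factors acted on the Mmp genes was not tested.

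Mmp19 and Mmp11, secreted MMPs outside the cluster, parted between the cultures. Mmp19, a widely expressed MMP of basement membrane and cartilage proteins, had log2 signals of 8.55 and 8.96 in medulla and 7.14 and 7.05 in cortex organoids, 6.27 and 5.58 in medulla and 5.15 and 5.70 in cortex progenitors, and 4.57 and 2.74 in medulla and 4.38 and 3.27 in cortex tissue. Organoid arrays were all above progenitor arrays, and progenitor arrays all above tissue arrays. Mmp19 was higher in organoids than in progenitors by 1.97 ± 0.27 (limma adjusted p = 3.60e-05; 3.91-fold) and than in tissue by 3.14 ± 0.27 (limma adjusted p = 4.03e-07; 8.83-fold). Mmp11 (stromelysin 3, which is activated inside the cell by furin and is known from stroma) had log2 signals of 7.17 and 6.44 in medulla and 7.06 and 6.55 in cortex organoids, 8.41 and 8.39 in medulla and 8.70 and 8.62 in cortex progenitors, and 6.69 and 4.34 in medulla and 5.98 and 5.79 in cortex tissue. Progenitor arrays were above all others. Mmp11 was higher in progenitors than in tissue by 2.47 ± 0.33 (limma adjusted p = 2.52e-05; 5.56-fold) and lower in organoids than in progenitors, with a difference of -1.60 ± 0.33 (limma adjusted p = 0.000894; 3.03-fold).

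The gelatinases, which digest denatured collagen and basement membrane collagen, followed different courses. Mmp2 (gelatinase A) had log2 signals of 10.17 and 9.43 in medulla and 7.43 and 6.60 in cortex organoids, 9.24 and 9.02 in medulla and 9.29 and 9.40 in cortex progenitors, and 7.94 and 7.13 in medulla and 6.81 and 7.72 in cortex tissue. Progenitor arrays lay above tissue arrays, while organoid arrays ranged from the highest to the lowest values of the set, high in medulla and low in cortex. Mmp2 was higher in progenitors than in tissue by 1.75 ± 0.26 (limma adjusted p = 7.19e-05; 3.36-fold). The average organoid difference, -0.77 ± 0.26 (limma adjusted p = 0.0194) against progenitors, averages over that split, as does the organoid minus tissue difference of 0.97 ± 0.26 (limma adjusted p = 0.00476), which within a region, with no test, was 2.17 in medulla and -0.23 in cortex. The call against progenitors was lost in 4 of 12 fits without 1 array (the second cortex organoid, second medulla organoid, second cortex progenitor or first medulla progenitor array).

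Mmp9 (gelatinase B, known from leukocytes and injured tubules) had log2 signals of 3.28 and 4.30 in medulla and 4.16 and 4.83 in cortex organoids, 7.31 and 7.31 in medulla and 6.15 and 6.78 in cortex progenitors, and 6.32 and 6.11 in medulla and 6.83 and 6.66 in cortex tissue. Every organoid array lay below every progenitor and tissue array. Mmp9 was lower in organoids than in progenitors, with a difference of -2.01 ± 0.23 (limma adjusted p = 9.00e-06; 4.02-fold) and lower in organoids than in tissue, with a difference of -1.65 ± 0.23 (limma adjusted p = 3.66e-05; 3.13-fold), while progenitors and tissue overlapped, with a difference of 0.36 ± 0.23 (limma adjusted p = 0.182). The mean of both probe sets of Mmp9 was called higher in progenitors than in tissue, by 0.67 (limma adjusted p = 0.00891). The 10 leukocyte markers averaged log2 signals of 5.62 to 6.54 in organoids, 4.85 to 5.90 in progenitors and 7.21 to 7.46 in tissue. Of the 7 that were tested, 3 were higher and 4 lower in organoids than in tissue, and their part in the Mmp9 difference was not tested. Lcn2, whose protein binds MMP9, was higher in progenitors than in tissue by 7.39 ± 0.27 and in organoids than in tissue by 6.60 ± 0.27.

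The membrane-held MMPs also separated. Mmp14 (MT1-MMP, a surface collagenase that activates pro-MMP2) had log2 signals of 9.31 and 9.55 in medulla and 10.82 and 10.96 in cortex organoids, 12.02 and 12.08 in medulla and 12.25 and 12.27 in cortex progenitors, and 8.56 and 8.15 in medulla and 7.76 and 8.24 in cortex tissue. Progenitor arrays formed the top band, tissue arrays the bottom band, and organoid arrays lay between them with cortex above medulla. Mmp14 was higher in progenitors than in tissue by 3.91 ± 0.13 (limma adjusted p = 9.74e-11; 15-fold), lower in organoids than in progenitors, with a difference of -1.98 ± 0.13 (limma adjusted p = 6.16e-08; 3.94-fold), and higher in organoids than in tissue by 1.93 ± 0.13 (limma adjusted p = 4.18e-08; 3.8-fold). Its other probe sets that were bright enough to test were called in the same direction in all 3 comparisons.

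Mmp24 (MT5-MMP, best known from neurons) had log2 signals of 8.92 and 8.85 in medulla and 8.91 and 8.78 in cortex organoids, 6.28 and 5.90 in medulla and 6.33 and 6.22 in cortex progenitors, and 6.43 and 6.67 in medulla and 7.07 and 6.41 in cortex tissue. The 4 organoid arrays lay close together and above all other arrays. By this probe set Mmp24 was higher in organoids than in progenitors by 2.45 ± 0.20 (limma adjusted p = 3.95e-07; 5.47-fold) and than in tissue by 2.06 ± 0.20 (limma adjusted p = 1.19e-06; 4.16-fold). Another probe set (1417678_at) was lower in organoids than in progenitors, with a difference of -1.33 ± 0.35 (limma adjusted p = 0.00635), and the mean of all 3 probe sets gave 0.18 (limma adjusted p = 0.447), so a direction for the gene is not settled. Mmp23, anchored in the membrane until it is cleaved and released, had log2 signals of 2.76 and 5.85 in medulla and 2.73 and 4.67 in cortex organoids, 6.15 and 5.63 in medulla and 5.0 and 5.17 in cortex progenitors, and 7.29 and 7.02 in medulla and 7.76 and 7.81 in cortex tissue. Tissue arrays were above all cultured arrays. It was lower than in tissue, with differences of -1.67 ± 0.36 (limma adjusted p = 0.00107; 3.19-fold) in progenitors and -2.48 ± 0.36 (limma adjusted p = 3.92e-05; 5.59-fold) in organoids. Its second probe set (1417281_a_at) was also lower in both, by -3.24 ± 0.35 (limma adjusted p = 5.18e-06) and -1.21 ± 0.35 (limma adjusted p = 0.00911). Which culture lay lower thus depends on the probe set.

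**Figure D3:**
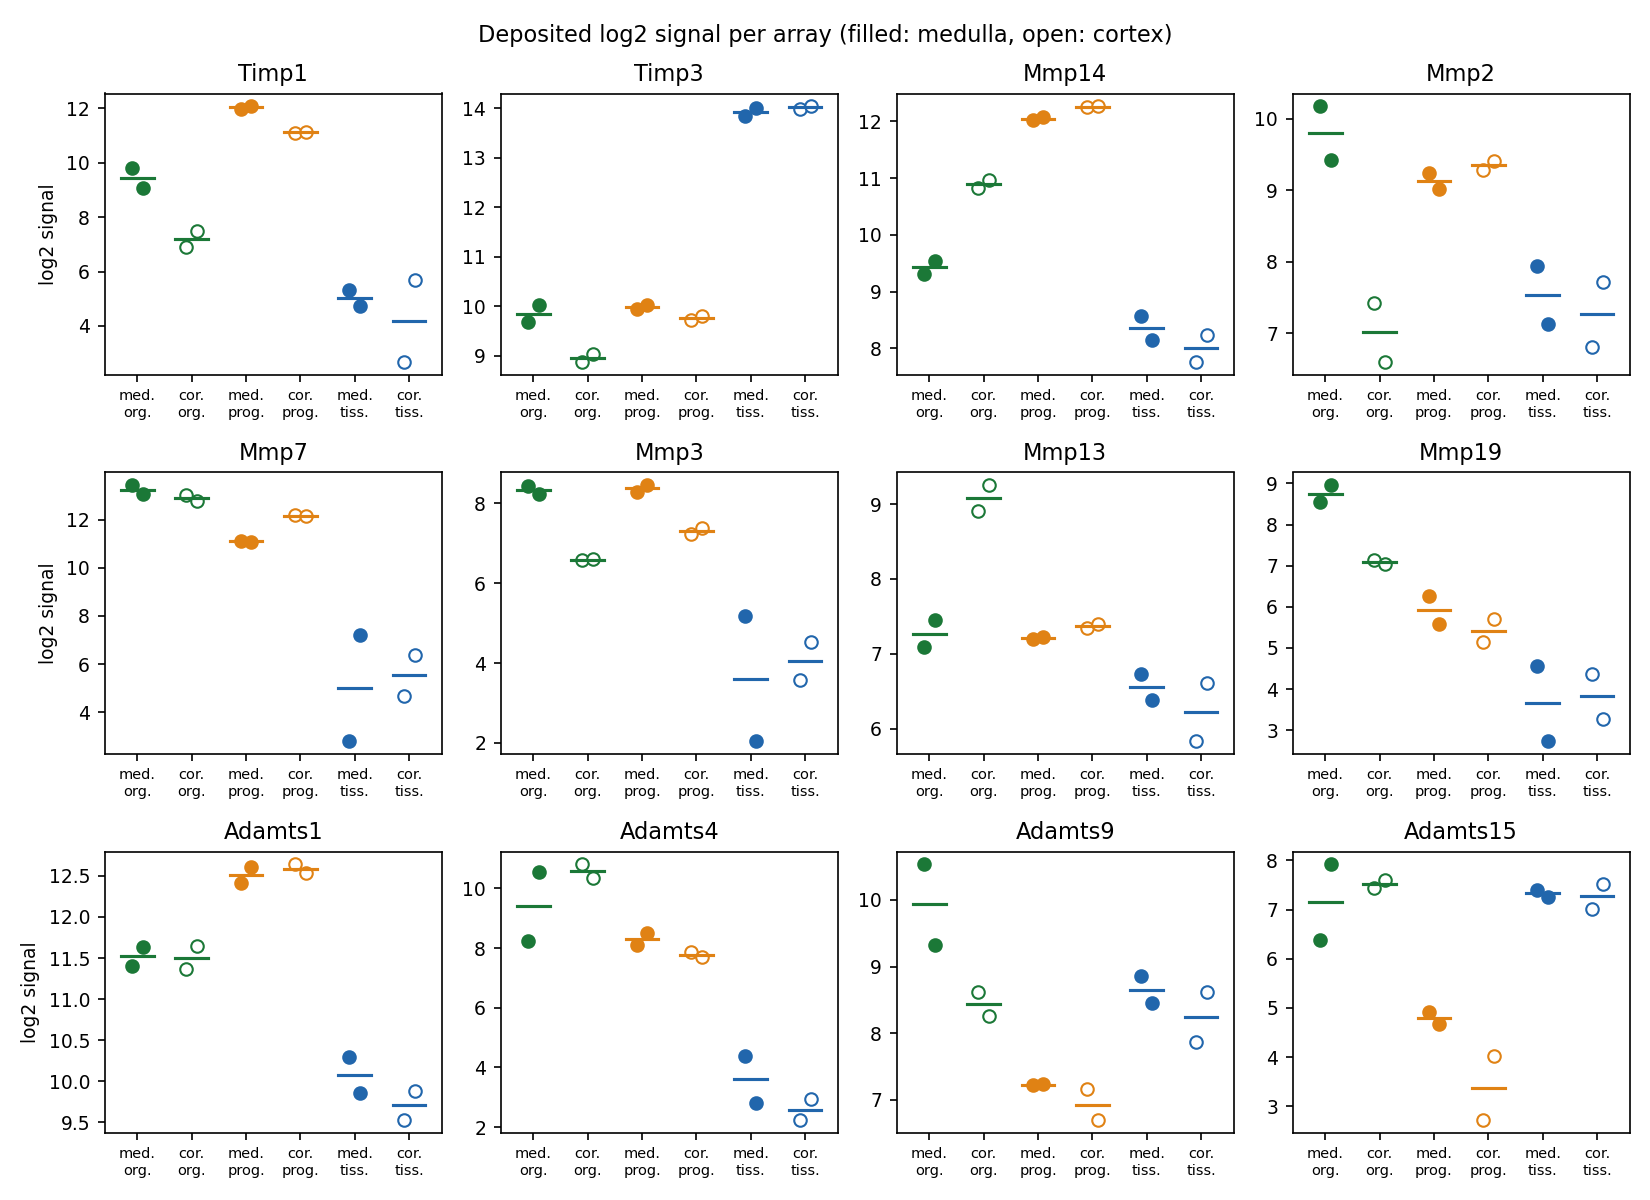
Deposited log2 signal of selected members on each array, in organoids, progenitors and tissue; filled points are medulla, open points cortex, and the bar is the mean of the 2 arrays. Timp1 and Mmp14 are highest in progenitors, Mmp7 in organoids and Timp3 in tissue, and for Mmp2 the filled and open organoid points lie apart.

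The ADAMTS proteases that cut versican and aggrecan split into those high in culture and those low in progenitors. Adamts1 had log2 signals of 11.40 and 11.64 in medulla and 11.36 and 11.64 in cortex organoids, 12.41 and 12.61 in medulla and 12.64 and 12.54 in cortex progenitors, and 10.29 and 9.85 in medulla and 9.53 and 9.88 in cortex tissue. The 3 sample types did not overlap and regions lay close together. Adamts1 was higher in progenitors than in tissue by 2.64 ± 0.13 (limma adjusted p = 2.25e-09; 6.25-fold), lower in organoids than in progenitors, with a difference of -1.03 ± 0.13 (limma adjusted p = 1.36e-05; 2.05-fold), and higher in organoids than in tissue by 1.61 ± 0.13 (limma adjusted p = 1.80e-07; 3.05-fold). Adamts5 (aggrecanase 2) had log2 signals of 10.70 and 9.54 in medulla and 8.94 and 9.02 in cortex organoids, 11.99 and 12.08 in medulla and 11.99 and 11.99 in cortex progenitors, and 8.48 and 7.93 in medulla and 8.11 and 9.17 in cortex tissue. The 4 progenitor arrays lay close together and above all others. Adamts5 was higher in progenitors than in tissue by 3.53 ± 0.25 (limma adjusted p = 9.27e-08; 11.5-fold) and lower in organoids than in progenitors, with a difference of -2.44 ± 0.25 (limma adjusted p = 3.45e-06; 5.41-fold). Organoids and tissue overlapped, and between them a second probe set (1422561_at) was called in the opposite direction, -0.75 ± 0.22 (limma adjusted p = 0.00932) against 1.09 ± 0.25 (limma adjusted p = 0.00173).

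Adamts4 (aggrecanase 1) had log2 signals of 8.25 and 10.55 in medulla and 10.81 and 10.36 in cortex organoids, 8.11 and 8.51 in medulla and 7.86 and 7.71 in cortex progenitors, and 4.38 and 2.82 in medulla and 2.24 and 2.93 in cortex tissue. It was low on every tissue array, and the first medulla organoid array lay in the progenitor range while the other 3 organoid arrays were above it. Adamts4 was higher in progenitors than in tissue by 3.51 ± 0.39 (limma adjusted p = 5.34e-06; 11.4-fold) and in organoids than in tissue by 5.40 ± 0.39 (limma adjusted p = 8.77e-08; 42.4-fold), and it was higher in organoids than in progenitors by 1.89 ± 0.39 (limma adjusted p = 0.000928).

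Adamts8, Adamts9 and Adamts15, of the same aggrecan- and versican-cutting branch, were lower in progenitors than in tissue and higher in organoids than in progenitors. Adamts15 had log2 signals of 6.38 and 7.92 in medulla and 7.44 and 7.59 in cortex organoids, 4.92 and 4.67 in medulla and 2.72 and 4.02 in cortex progenitors, and 7.40 and 7.25 in medulla and 7.02 and 7.52 in cortex tissue. Organoid and tissue arrays overlapped, and all progenitor arrays were below both. Adamts15 was lower in progenitors than in tissue, with a difference of -2.37 ± 0.30 (limma adjusted p = 1.53e-05; 5.16-fold) and higher in organoids than in progenitors by 2.41 ± 0.30 (limma adjusted p = 1.51e-05; 5.3-fold), with an organoid minus tissue difference of 0.04 ± 0.30 (limma adjusted p = 0.909).

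Adamts8 had log2 signals of 5.72 and 6.45 in medulla and 7.45 and 7.36 in cortex organoids, 4.89 and 2.73 in medulla and 3.86 and 2.67 in cortex progenitors, and 6.03 and 6.78 in medulla and 6.42 and 6.79 in cortex tissue. Its progenitor arrays were again the lowest. Adamts8 was lower in progenitors than in tissue, with a difference of -1.92 ± 0.29 (limma adjusted p = 7.82e-05; 3.78-fold) and higher in organoids than in progenitors by 2.14 ± 0.29 (limma adjusted p = 3.44e-05; 4.41-fold), with an organoid minus tissue difference of 0.22 ± 0.29 (limma adjusted p = 0.495). Both genes lie close together on chromosome 9 (GRCm38.p6), Adamts15 at chr9:30899155-30922452 and Adamts8 at chr9:30942562-30963838.

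Adamts9 had log2 signals of 10.54 and 9.33 in medulla and 8.62 and 8.26 in cortex organoids, 7.22 and 7.23 in medulla and 7.16 and 6.70 in cortex progenitors, and 8.86 and 8.45 in medulla and 7.86 and 8.62 in cortex tissue. Medulla organoids were brightest, and organoid and tissue arrays overlapped. Adamts9 was lower in progenitors than in tissue, with a difference of -1.28 ± 0.26 (limma adjusted p = 0.000891; 2.42-fold) and higher in organoids than in progenitors by 2.0 ± 0.26 (limma adjusted p = 2.68e-05; 3.99-fold).

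Of the other ADAMTS proteases, Adamts10, whose protein binds fibrillin microfibrils, had log2 signals of 5.33 and 2.95 in medulla and 4.10 and 2.89 in cortex organoids, 6.04 and 6.34 in medulla and 5.01 and 2.97 in cortex progenitors, and 6.75 and 6.74 in medulla and 6.23 and 6.70 in cortex tissue. Tissue arrays were above every organoid array, and progenitors overlapped both. It was lower in organoids than in tissue, with a difference of -1.86 ± 0.33 (limma adjusted p = 0.00024; 3.63-fold), and the mean of its 2 probe sets gave -0.13 for this comparison and no call. Its lower level in progenitors than in tissue was called with overlapping arrays, at -1.06 ± 0.33 (limma adjusted p = 0.0123). The other probe set (1441309_at), below the brightness filter, ran the other way, at 4.67 to 5.20 in progenitors and 0.13 to 2.75 in tissue. Adamts16 had log2 signals of 4.65 and 5.16 in medulla and 4.92 and 4.31 in cortex organoids, 6.11 and 6.18 in medulla and 5.32 and 4.98 in cortex progenitors, and 5.77 and 6.65 in medulla and 6.24 and 6.82 in cortex tissue. All organoid arrays lay below all tissue arrays. It was lower in organoids than in tissue, with a difference of -1.21 ± 0.25 (limma adjusted p = 0.000797; 2.32-fold), and a second probe set was not called. Adamts7 and Adamts12, which cleave cartilage oligomeric matrix protein, passed the test in 1 comparison each. Adamts7 was higher in progenitors than in tissue by 0.86 ± 0.36 (limma adjusted p = 0.0494), a call lost in 8 of 12 fits without 1 array (adjusted p up to 0.145) and with the replicate number as a block (0.0605), and Adamts12 was lower in organoids than in tissue, with a difference of -0.94 ± 0.28 (limma adjusted p = 0.0089).

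Among the ADAMTS-like proteins, Adamtsl2, which binds fibrillin-1 and a latent TGF-beta binding protein, had log2 signals of 0.73 and 1.84 in medulla and 2.99 and 2.53 in cortex organoids, 3.59 and 6.23 in medulla and 3.15 and 2.23 in cortex progenitors, and 8.22 and 8.50 in medulla and 8.65 and 8.83 in cortex tissue. Tissue arrays were above all cultured arrays. Adamtsl2 was lower than in tissue, with differences of -3.57 ± 0.33 (limma adjusted p = 9.69e-07; 11.9-fold) in progenitors and -4.30 ± 0.33 (limma adjusted p = 1.46e-07; 19.7-fold) in organoids. Adamtsl1 (punctin) had log2 signals of 3.75 and 3.47 in medulla and 3.56 and 4.51 in cortex organoids, 3.81 and 4.25 in medulla and 4.89 and -0.03 in cortex progenitors, and 7.80 and 6.96 in medulla and 6.15 and 7.05 in cortex tissue, and it was lower than in tissue, with differences of -2.30 ± 0.35 (limma adjusted p = 7.55e-05; 4.92-fold) in progenitors and -2.28 ± 0.35 (limma adjusted p = 6.91e-05; 4.85-fold) in organoids. The 7 endothelial markers, which averaged log2 signals of 3.10 to 4.09 in organoids, 4.17 to 5.59 in progenitors and 9.49 to 10.02 in tissue, were all 7 called lower than in tissue in organoids and in progenitors. The 6 smooth muscle and pericyte markers averaged 4.52 to 5.01 in organoids, 5.22 to 6.90 in progenitors and 8.44 to 9.66 in tissue. Their part in the lower levels of Timp3, Adamtsl1, Adamtsl2 and Mmp23 in culture was not tested.

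Adamtsl4, which promotes fibrillin-1 microfibrils, had log2 signals of 9.67 and 9.37 in medulla and 9.44 and 9.15 in cortex organoids, 9.81 and 9.77 in medulla and 9.77 and 9.41 in cortex progenitors, and 7.84 and 7.33 in medulla and 6.91 and 7.70 in cortex tissue. All cultured arrays were above all tissue arrays. It was higher than in tissue by 2.15 ± 0.19 (limma adjusted p = 6.33e-07; 4.42-fold) in progenitors and by 1.87 ± 0.19 (limma adjusted p = 1.87e-06; 3.65-fold) in organoids. Adamtsl5, also a fibrillin-binding protein, had log2 signals of 5.73 and 6.08 in medulla and 3.34 and 3.98 in cortex organoids, 6.33 and 6.66 in medulla and 6.89 and 6.70 in cortex progenitors, and 5.24 and 3.16 in medulla and 3.74 and 5.59 in cortex tissue. Progenitor arrays were above all others. It was higher in progenitors than in tissue by 1.56 ± 0.32 (limma adjusted p = 0.000827; 2.96-fold) and lower in organoids than in progenitors, with a difference of -1.33 ± 0.32 (limma adjusted p = 0.00265; 2.51-fold).

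**Figure D4:**
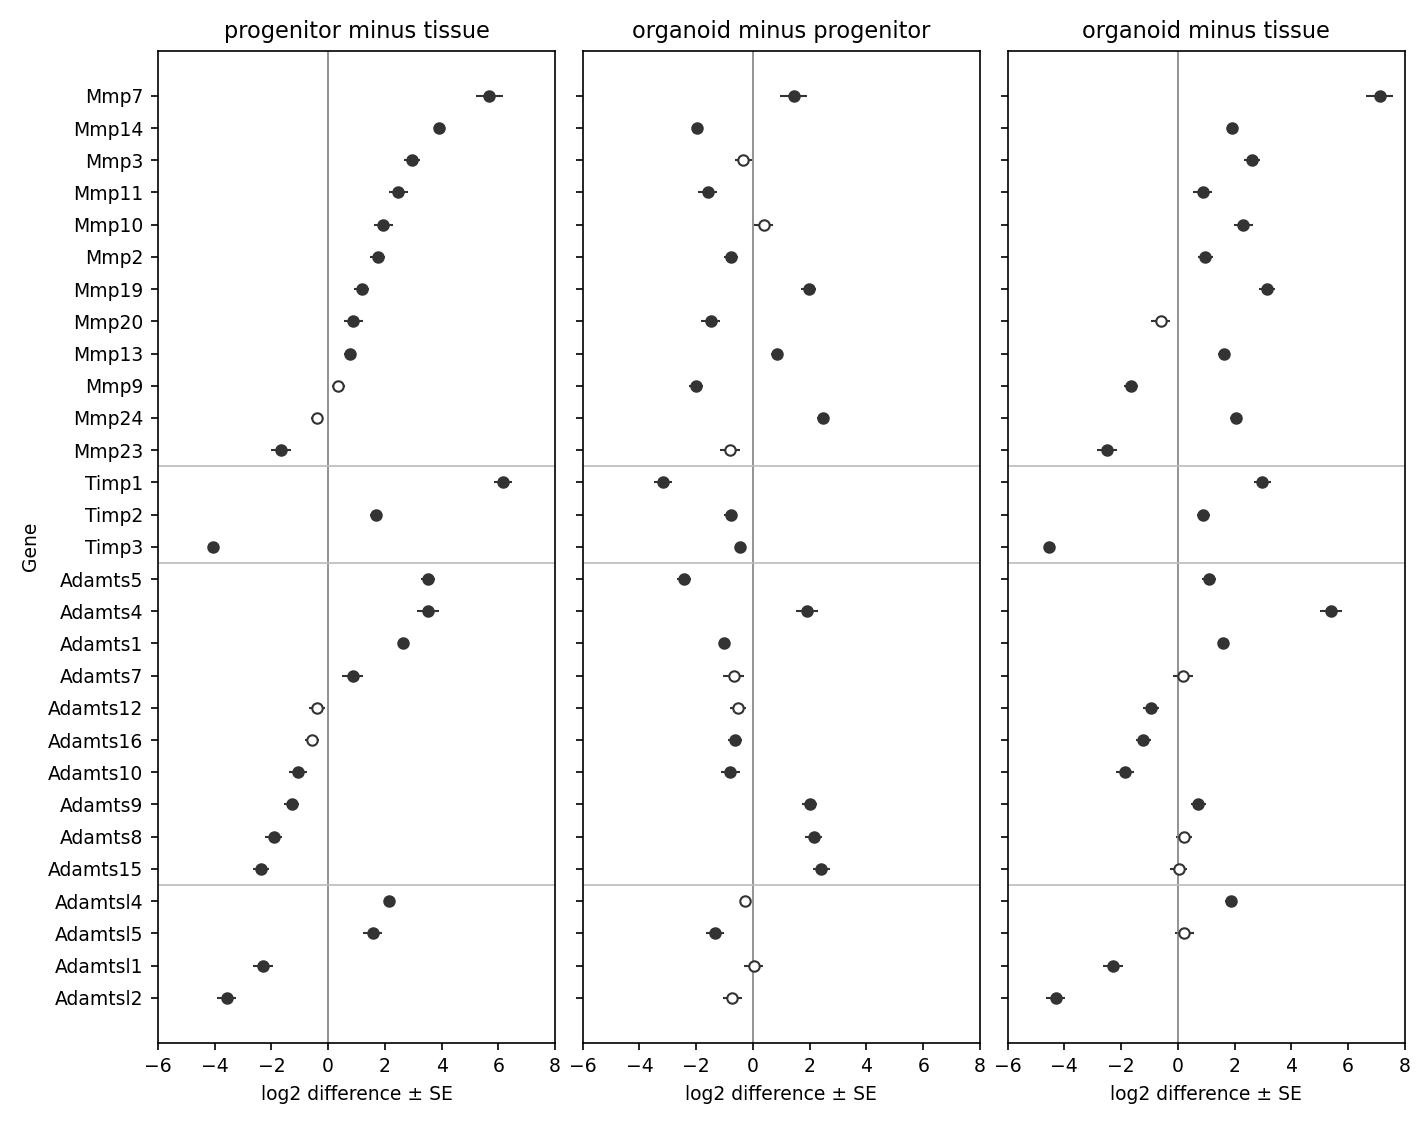
Difference of each tested member in log2(signal + offset), with its SE, in 3 panels: progenitors minus tissue, organoids minus progenitors, and organoids minus tissue; filled points are called at an adjusted p under 0.05 and open points are not. Against tissue, Timp1 lies farthest to the right for progenitors and Mmp7 for organoids, and Timp3 and Adamtsl2 lie farthest to the left for both. By the probe set shown for each gene, the organoid minus progenitor panel holds 8 called rises and 13 called falls. Other probe sets of Mmp24, Timp2 and Timp3 were called in the opposite direction there.

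Region of origin was compared as medulla minus cortex, 2 arrays on each side. The proximal tubule markers averaged log2 signals of 13.76 and 14.30 in medulla and 14.36 and 14.43 in cortex tissue. By region in tissue, 0 of 5 proximal tubule, 0 of 4 loop of Henle and 0 of 6 collecting duct markers were called. Of the 6 simple epithelial genes, 2 were higher in medulla tissue. How cleanly the tissue pieces were parted by region was not tested, which limits what the tissue counts show. In tissue 0 of 29 members were called by limma (1 at an unadjusted p under 0.05), against 0.338% of all genes (0.330% higher and 0.00767% lower). In progenitors 0 were called (4 at an unadjusted p under 0.05), against 0.314% of all genes (0.276% higher and 0.0384% lower). Each gene has 1 spread shared over the 6 groups, so widely spread tissue arrays also widen the SE in progenitors. Mmp7 had 11.10 and 11.09 in medulla and 12.17 and 12.13 in cortex progenitors, a difference of -1.05 ± 0.67. When only the progenitor arrays entered the fit, 2 members were called by region. The count of 0 thus does not show that regions were equal in progenitors. In organoids 10 were called, 8 higher and 2 lower in medulla, against 18.0% of all genes (7.94% higher and 10.0% lower), with a median of 0.32 over the members and -0.0022 over all genes. The number of organoid calls was 6 with an offset of 1 signal unit, 2 when only the organoid arrays entered the fit, and 4 without the first or 6 without the second cortex organoid array.

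Mmp2 differed most. Its medulla organoids had log2 signals of 10.17 and 9.43 and its cortex organoids 7.43 and 6.60, a difference of 2.65 ± 0.37 (limma adjusted p = 0.00099; 6.27-fold). Its second probe set (1416136_at) agreed, with 9.33 and 9.24 in medulla organoids and 6.68 and 6.79 in cortex organoids. Between organoids and progenitors, the medulla minus cortex difference of Mmp2 changed by 2.86 ± 0.53 (limma adjusted p = 0.0141). Within a region, as a description with no test, organoids differed from progenitors by 0.66 in medulla and by -2.20 in cortex.

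Mmp14, whose protein activates pro-MMP2, went the opposite way. Its medulla organoids had log2 signals of 9.31 and 9.55 and its cortex organoids 10.82 and 10.96, a difference of -1.44 ± 0.18 (limma adjusted p = 0.000481; 2.72-fold). Of its other probe sets, 1440920_at was also lower in medulla organoids, with a difference of -1.11 ± 0.23 (limma adjusted p = 0.0108), and 1416572_at was not called, with a difference of -0.95 ± 0.42 (limma adjusted p = 0.194). Between organoids and progenitors its regional difference changed by -1.23 ± 0.26 (limma adjusted p = 0.025), and within a region organoids differed from progenitors by -2.60 in medulla and by -1.36 in cortex. Mmp13 was the other gene lower in medulla, with a difference of -1.71 ± 0.30 (limma adjusted p = 0.00293; 3.28-fold). These changes of the regional difference were called for 2 of 29 members (1 higher and 1 lower; 10 at an unadjusted p under 0.05), against 4.10% of all genes (1.63% higher and 2.48% lower). They rest on few arrays: without 1 array at a time the adjusted p was 0.00234 to 0.0762 for Mmp2, over the threshold without any 1 of the 4 progenitor arrays or the second cortex organoid array, and 0.00533 to 0.114 for Mmp14, over it in 6 of 12 such fits (without any 1 progenitor or cortex organoid array). The corresponding change between progenitors and tissue was called by limma for 0 members (3 at an unadjusted p under 0.05), against 0.284% of all genes (0.161% higher and 0.123% lower).

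Of the inhibitors, Timp1 and Timp3 were higher in medulla organoids. Timp1, with 9.82 and 9.06 in medulla organoids and 6.90 and 7.47 in cortex organoids, differed by 2.14 ± 0.44 (limma adjusted p = 0.0068; 4.41-fold). Timp3, with 9.67 and 10.02 in medulla organoids and 8.87 and 9.04 in cortex organoids, differed by 0.87 ± 0.14 (limma adjusted p = 0.00183; 1.83-fold). Timp2 was not called, with a difference of 0.84 ± 0.32 (limma adjusted p = 0.0896). Mmp19 (1.56 ± 0.38), Mmp3 (1.59 ± 0.41), Adamts9 (1.45 ± 0.37), Adamtsl5 (1.43 ± 0.45) and Adamts5 (1.12 ± 0.36) were also higher in medulla organoids, with limma adjusted p of 0.0161, 0.0207, 0.0205, 0.0492 and 0.0499. Adamtsl5 and Adamts5 passed narrowly. With the replicate number as a block their adjusted p was 0.0626 and 0.0624, and without 1 array at a time the calls were lost in 8 and 9 of 12 fits, up to an adjusted p of 0.198 and 0.242. A second probe set was not called for Timp3 (1449334_at, 0.31 ± 0.14), Mmp19 (1421977_at, 1.17 ± 0.38) or Adamts9 (1430352_at, 0.64 ± 0.36), with limma adjusted p of 0.197, 0.0793 and 0.328. Leaving out the first cortex organoid array took Timp1 to an adjusted p of 0.0630. Mmp3, Mmp19 and Adamts9 lost their calls when either cortex organoid array was left out, and Adamts9 also without the first medulla organoid array. Over these fits the limma adjusted p reached 0.0957 for Mmp3, 0.0879 for Mmp19 and 0.136 for Adamts9.

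Markers of fibroblasts and mesenchyme also differed by region in organoids, in the direction of the 8 members that were higher in medulla and against that of Mmp14 and Mmp13. The mean log2 signal of 11 such genes (Pdgfra, Pdgfrb, Thy1, Prrx1, Twist1, Lum, Dcn, Col1a1, Col1a2, Col3a1 and Col6a3) was 8.68 and 8.43 in medulla and 5.52 and 6.53 in cortex organoids, 9.01 and 9.06 in medulla and 8.84 and 8.75 in cortex progenitors, and 8.66 and 8.01 in medulla and 7.81 and 8.36 in cortex tissue. Cortex organoids were thus the lowest group. Single markers averaged from 4.16 (Lum) to 11.90 (Col1a1) in medulla organoids and from 1.58 (Lum) to 10.52 (Col1a1) in cortex organoids. In organoids 9 of the 11 were higher in medulla than in cortex, with a median difference of 2.18, among them Col6a3 (3.33 ± 0.46), Dcn (3.13 ± 0.32) and Pdgfra (2.50 ± 0.56). Their part in the regional differences of Mmp2, Timp1, Timp3 and the others was not tested. Over sample types, 7 of the 11 were higher and 3 lower in progenitors than in tissue, and 1 was higher and 9 lower in organoids than in progenitors. Any feeder fibroblasts left in the progenitor samples cannot be told apart from fibroblast genes of the progenitors themselves.

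**Figure D5:**
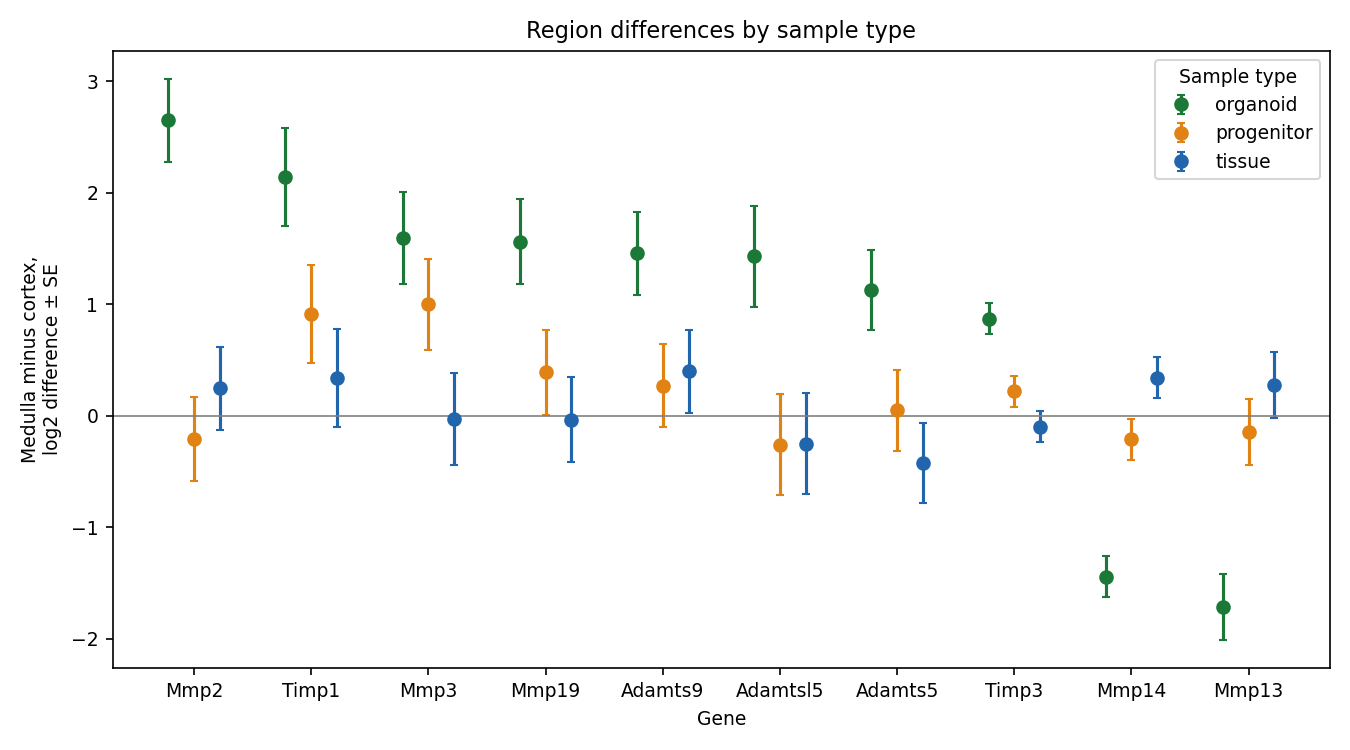
Medulla minus cortex difference in log2(signal + offset), with its SE, for the 10 members called in organoids, shown for organoids, progenitors and tissue with 2 arrays on each side. Organoid points spread from -1.71 for Mmp13 to 2.65 for Mmp2, and no progenitor or tissue point was called.

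Genes that work with these enzymes were read from 8 lists, whose counts are to be set against the shares of all genes tested: 36.8% higher and 35.9% lower in progenitors than in tissue, and 33.0% higher and 46.6% lower in organoids than in tissue, with medians of 0.03 and -0.29. Where a count lies close to these shares, nothing is read from it. The plasminogen system, which activates several proMMPs, had 8 tested genes. Against tissue, 4 were higher and 3 lower in progenitors, and 5 were higher and 3 lower in organoids. Plau (urokinase) was higher in organoids than in progenitors by 4.42 ± 0.18 while progenitors and tissue differed by -0.10 ± 0.18, and its receptor Plaur was higher in progenitors than in tissue by 3.50 ± 0.14. Serpinf2, which inhibits plasmin, was lower in progenitors than in tissue, with a difference of -4.89 ± 0.22.

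Among other inhibitors and clearance factors, of 8 tested, 0 were higher and 7 lower in progenitors than in tissue, and 1 was higher and 7 lower in organoids than in tissue, with medians of -1.09 and -1.65 (all genes 0.03 and -0.29, with 35.9% and 46.6% lower). Reck, a membrane-anchored inhibitor of several MMPs, differed from tissue by -3.74 ± 0.30 in progenitors and by -4.86 ± 0.30 in organoids. Tfpi2, a serine protease inhibitor, differed by -5.41 ± 0.32 and -6.01 ± 0.32, and Papln was the 1 that was higher in organoids (2.16 ± 0.51).

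Of 11 membrane ADAM proteases, 4 were higher and 2 lower in progenitors than in tissue, and 5 higher and 4 lower in organoids than in tissue. Adam12 and Adam8 were higher in progenitors than in tissue by 4.49 ± 0.19 and 4.06 ± 0.23, and the organoid minus progenitor differences were -3.99 ± 0.19 and -3.0 ± 0.23, both called lower. Among 4 astacin proteases the meprins Mep1a and Mep1b, brush border proteases of the proximal tubule, had the largest differences of any gene on these 8 lists, -7.72 ± 0.26 and -8.86 ± 0.28 in progenitors against tissue. Bmp1, a procollagen C-proteinase, was higher in progenitors than in tissue by 2.02 ± 0.23, and 0 of the 4 were higher in organoids than in tissue while 3 were lower.

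Of 8 proprotein convertases and MMP cofactors, 3 were higher and 4 lower in progenitors than in tissue, and 4 higher and 4 lower in organoids than in tissue. Furin, which cleaves the proforms of membrane-type MMPs and of many ADAMTS proteases, differed by -0.59 ± 0.11 in progenitors against tissue and by 1.0 ± 0.11 in organoids against progenitors. Cd44, a docking protein for MMP9 and MMP14, was higher in progenitors than in tissue by 5.70 ± 0.10.

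Of 11 tested substrates of ADAMTS proteases, 5 were higher and 3 lower in progenitors than in tissue, and 3 higher and 7 lower in organoids than in tissue. Versican (Vcan), cut by Adamts1, Adamts4, Adamts5 and Adamts9, was higher in progenitors than in tissue by 4.87 ± 0.15, and its organoid minus progenitor difference was -2.14 ± 0.15. Has2, which makes hyaluronan, differed by 3.81 ± 0.27 and -3.01 ± 0.27 in the same 2 comparisons. Of 13 basement membrane genes and gelatinase substrates, 4 were higher and 6 lower in progenitors than in tissue, and 3 higher and 8 lower in organoids than in tissue. Fibronectin (Fn1) was higher in progenitors than in tissue by 3.38 ± 0.18, and Col4a3 and Col4a4, chains of the collagen IV of mature kidney basement membranes, differed from tissue by -4.07 ± 0.18 and -5.11 ± 0.19 in organoids. Between organoids by region, 6 of the 11 ADAMTS substrates were higher and 1 lower in medulla than in cortex, and 4 of the 13 basement membrane genes were higher and 2 lower, against 7.94% higher and 10.0% lower over all genes. Among those higher were Nid1 (3.13 ± 0.29), Vcan (2.78 ± 0.22) and Col4a1 (2.54 ± 0.18). The substrate list shares Dcn, Col1a1, Col1a2 and Col3a1 with the fibroblast list.

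Where a called member had further probe sets bright enough to test, the direction mostly held. Between progenitors and tissue all 17 such probe sets were called in the same direction as the one shown. Between organoids and progenitors 12 of 18 were, 5 were called in the opposite direction (3 of Timp2, 1 of Timp3 and 1 of Mmp24) and 1 was not called. Between organoids and tissue 15 of 19 were, with 1 opposite (Adamts5) and 3 not called. For medulla minus cortex in organoids 6 of 10 were called in the same direction and 4 were not called, one each of Adamts9, Mmp14, Mmp19 and Timp3.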

How the data were processed

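RNA of 12 samples was measured on Affymetrix 3' arrays, with labelled cRNA made from column-purified RNA per the labels' protocols. Each file the authors deposited gives, for every probe set, a log2 signal, made with MAS5 per the submitters' processing notes (version not given in the sources used here). Trimmed by 2% at each end, unlogged signals averaged 500 on all 12 arrays. Detection calls were not used, so no gene is called absent.

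Of 45101 probe sets, 64 were controls, 34958 carried 1 gene symbol in the platform annotation, 932 several and 9211 none. The probe set with 1 symbol and the highest mean stood for each of 18193 genes, and 13037 genes passed the brightness filter. To the unlogged values 15.1473 signal units were added, which is their 25th percentile, before log2 was taken. R 4.3.3 and limma 3.58.1 fitted all 12 arrays as 6 groups with a mean-variance trend, leaving 6 residual degrees of freedom. Two-sided p-values were adjusted by the Benjamini-Hochberg method across the 13037 genes, at a threshold of 0.05. The script was tested on simulated data. With 2 arrays a group, precision is limited by their number.

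The members and lists were chosen with earlier results of these data known. Values of every array are printed for members that passed the test with at least a 2-fold difference and no overlap of arrays (the 8 largest each way between sample types, the 5 largest each way between regions), and for the gelatinases, Mmp14 and the TIMPs. Adamtsl4, Adamts7, Adamts12 and genes of the lists were named after their values were seen. Same-numbered replicates did not deviate together (r from -0.138 to 0.0569 over 15 pairs of groups), so the numbers were not treated as pairs. Alternatives were quantile normalization, other offsets, filters and probe sets, fits on the groups compared, no trend, a replicate block and leaving out each array. The check of other probe sets and the crossed block were chosen after seeing the data. Promoter windows came from RefSeq (GRCm38.p6).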

Additional observations from a re-analysis of the deposited data

Results flagged for a closer look

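Of the members, Mmp2 and Mmp14 stood out because their regional difference in organoids differed from that in progenitors by a test of the difference itself. For Mmp2, medulla minus cortex was higher in organoids than in progenitors by 2.86 ± 0.53 (SE; limma adjusted p = 0.0141), with 2.65 ± 0.37 in organoids and -0.21 ± 0.37 in progenitors. For Mmp14 the change was -1.23 ± 0.26 (limma adjusted p = 0.025), with -1.44 ± 0.18 in organoids and -0.21 ± 0.18 in progenitors. The 2 genes moved in opposite directions, each rests on 2 arrays per group, and the number of arrays limits the precision. With the mean of all probe sets the change of Mmp14 was -0.90 and was not called (limma adjusted p = 0.123).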

How the results depend on the processing

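Of 1794 alternative values for 86 pairs of a member and a comparison, 1746 kept their side of the threshold, 40 lost the call and 7 gained one. Direction was counted as changed only where the main or the alternative value was called, which held for 1. That was Timp2 between organoids and progenitors, 0.67 with the mean of all probe sets. Uncalled differences that changed sign are among the 1746. For example, Timp1 by region in tissue ran from -0.48 to 1.15 without 1 array at a time. A brightness filter on the mean over all arrays, which tests 16 members, called 15 between progenitors and tissue (12 higher, 3 lower) and 15 between organoids and tissue (14 higher, 1 lower). Fits on only the groups compared called 2 members by region in progenitors, 2 by region in organoids and 4 for the change of the regional difference between organoids and progenitors. An offset of 1 signal unit called 6 by region in organoids. Without 1 array at a time, the number of members called was 22 to 26 between progenitors and tissue, 19 to 22 between organoids and progenitors, 22 to 24 between organoids and tissue, 0 to 0 by region in tissue and in progenitors, and 4 to 11 by region in organoids. It was 0 to 0 for the change of the regional difference between progenitors and tissue. For that between organoids and progenitors it was 0 to 7, with 0 without any 1 progenitor array or the second cortex organoid array, 1 without the first cortex organoid array, and 4 and 7 without the first and the second medulla organoid array. With the replicate number as a block, 24 members were called between progenitors and tissue, 21 between organoids and progenitors, 24 between organoids and tissue and 8 by region in organoids, and the block ended 3 calls, Adamts7 between progenitors and tissue and Adamts5 and Adamtsl5 by region in organoids, and none of the 86 pairs, which do not include these 3. Crossed numbers, chosen after seeing the data because the replicate correlation between regions was -0.138 in tissue, called 0 members by region in tissue and 0 in progenitors. The causes were not tested. Dim members depend most on the offset, which limits what can be said of their size.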
